A study of Homo sapiens with 8 samples.

Results

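The eIF2 kinases, their substrate eIF2 alpha and the exchange factor eIF2B are encoded by 10 genes, of the 58219 genes listed for each library. They were chosen by name and function: the 4 kinases EIF2AK1, EIF2AK2, EIF2AK3 and EIF2AK4, the substrate EIF2S1, and the 5 subunits EIF2B1 to EIF2B5. All 10 passed the filter on low counts and were among the 13129 protein-coding genes tested. RNA was sequenced from H929 and KMS11, myeloma cell lines that carry the t(4;14) translocation, after 24 h in 2 µM fluvastatin or in its solvent ethanol. There were 2 biological replicates per line and treatment. Fluvastatin is a statin, an inhibitor of HMG-CoA reductase, the rate-limiting enzyme of the mevalonate pathway. Each line stands for the tumor of a single patient, so the lines are not replicates of a disease. The labels give no further allele or agent.

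eIF2 carries the initiator methionyl-tRNA to the ribosome in its GTP-bound form, and eIF2B recharges spent eIF2 with GTP. Each of the kinases phosphorylates the alpha subunit of eIF2 under a different stress, and phosphorylated eIF2 blocks eIF2B, which lowers bulk translation while mRNAs with upstream open reading frames such as ATF4 are translated more. This pathway is the integrated stress response (ISR). Plasma cells and myeloma cells secrete antibody in bulk and load their endoplasmic reticulum (ER) heavily, which is the compartment that PERK, the product of EIF2AK3, monitors. The libraries measure mRNA, so neither phosphorylation nor protein was read.

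Total expected counts ranged from 26702515 to 41910446 per library. Of the 8 plasma cell markers, 7 were expressed in both lines, whereas CD38 stood at 21.2 to 26.9 TPM (abundance scaled by transcript length) in H929 and 0.01 to 0.04 TPM in KMS11. The 8 markers summed to 1995 and 2138 TPM in H929 in ethanol and 1679 and 1734 TPM in fluvastatin, and to 892.7 and 921 TPM against 644.1 and 731.2 TPM in KMS11. In H929 1 of the 8 rose and 4 fell with fluvastatin, where 22.7% and 19.3% of all genes tested did. In KMS11 XBP1 fell, where 0.533% of all genes did, and the other 7 did not pass. The 10 markers of other cell types summed to 2.05 to 4.19 TPM in H929 and 31.5 to 37.6 TPM in KMS11, nearly all of it from EPCAM, and CD14 was at 0 in every library. CD3E rose in H929 by 1.13 ± 0.23 (SE) on the log2 scale (edgeR, adjusted p = 0.0031), from 1.49 and 1.59 TPM to 2.92 and 3.54 TPM. The fluvastatin replicates of KMS11 stood farthest apart, with an SD of their log2 ratios over genes of 0.252, compared with 0.126 to 0.182 in the other groups. The part of these marker and replicate differences in the results below was not tested.

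Promoters were read from RefSeq, which held 9 of the 10 genes, all but EIF2AK1, on GRCh38.p14, as 250 bases before and 50 bases from the transcription start. The windows of 4 genes are shown, chosen after their values were seen. EIF2AK3 had the largest change, EIF2AK2 is known as an interferon-induced gene, and EIF2S1 and EIF2B3 both fell and held the same motif. Capitals mark the CCAAT box (CCAAT or its reverse complement) in EIF2AK3, the core of the interferon-stimulated response element (ISRE, GAAANNGAAA) in EIF2AK2, and the NRF1 pattern (GCGCNNGCGC) in EIF2S1 and EIF2B3.
EIF2AK3, chr2:88627415-88627714, minus strand: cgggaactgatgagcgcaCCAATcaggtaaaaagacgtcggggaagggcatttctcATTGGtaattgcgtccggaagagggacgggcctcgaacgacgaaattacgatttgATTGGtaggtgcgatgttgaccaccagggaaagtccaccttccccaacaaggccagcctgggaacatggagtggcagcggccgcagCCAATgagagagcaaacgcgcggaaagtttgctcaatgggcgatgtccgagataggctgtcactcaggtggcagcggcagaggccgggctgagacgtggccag
EIF2AK2, chr2:37156931-37157230, minus strand: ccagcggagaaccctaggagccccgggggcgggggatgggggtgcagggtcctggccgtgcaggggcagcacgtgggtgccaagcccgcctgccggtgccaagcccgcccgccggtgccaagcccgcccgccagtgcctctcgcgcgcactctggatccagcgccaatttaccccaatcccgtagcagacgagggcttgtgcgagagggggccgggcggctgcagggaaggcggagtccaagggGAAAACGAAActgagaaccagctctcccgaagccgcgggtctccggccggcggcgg
EIF2S1, chr14:67360078-67360377, plus strand: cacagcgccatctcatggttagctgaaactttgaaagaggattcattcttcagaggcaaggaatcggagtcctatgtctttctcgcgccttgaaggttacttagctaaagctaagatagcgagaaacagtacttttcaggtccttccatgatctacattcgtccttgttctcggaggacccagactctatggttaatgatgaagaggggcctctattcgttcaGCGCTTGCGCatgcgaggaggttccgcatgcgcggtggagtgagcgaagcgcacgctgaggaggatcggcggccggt
EIF2B3, chr1:44986546-44986845, minus strand: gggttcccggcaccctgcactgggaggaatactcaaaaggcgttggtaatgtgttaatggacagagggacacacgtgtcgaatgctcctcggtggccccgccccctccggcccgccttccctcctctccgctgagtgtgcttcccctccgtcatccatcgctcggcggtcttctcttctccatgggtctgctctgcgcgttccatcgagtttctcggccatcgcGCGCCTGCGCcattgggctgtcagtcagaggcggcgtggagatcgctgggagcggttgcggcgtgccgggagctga

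The EIF2AK3 window held 4 CCAAT boxes, which began 232 and 53 bases before the start on the gene's strand and 194 and 139 bases before it on the other strand. A CCAAT box was present in 34.6% of the 35116 promoters of the table and in 5 of the 9 genes. The ISRE core lay across the start of EIF2AK2, beginning 6 bases before it, and was present in 3.57% of all promoters. The NRF1 pattern began 27 bases before the start of EIF2S1 and 26 bases before that of EIF2B3, and 8.32% of all promoters held it. EIF2AK2 and EIF2B5, which also fell across both lines, did not hold it, and a part of the pattern in the responses was not tested. The E-box CACGTG (7.26% of promoters) was found in EIF2AK2 and EIF2B3, and the AP-1 pattern TGANTCA (7.71%) in EIF2AK4. Neither the CARE pattern of ATF4 (TGATGNAA, 3.62%), the cAMP response element (TGACGTCA, 1.85%) nor the unfolded protein response element (TGACGTGG, 0.729%) was present in any of the 9 genes. The ER stress response element (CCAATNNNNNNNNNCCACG, 0.0769%), which contains a CCAAT box, was not present either. Both strands were searched, and a match describes letters only. The RefSeq starts of EIF2AK3, EIF2AK2 and EIF2B3 lie inside the GENCODE spans of these genes, chr2:88556741-88691518, chr2:37099210-37157522 and chr1:44850522-44986722. The distances above are counted from the RefSeq starts.

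Which of the genes responded to fluvastatin was asked first over both lines in a single model that included a term for the line. EIF2AK3 rose 2.89-fold, whereas EIF2AK2, EIF2S1, EIF2B3 and EIF2B5 fell to between 0.67 and 0.769 of their ethanol levels. The remaining 5 genes did not pass the test. Thus 1 of 10 genes rose, where 6.5% of all genes tested did, and 4 of 10 fell, where 3.93% did. The median log2 fold change was -0.26 over the 10 genes and 0.03 over all genes tested. Calls are at an adjusted p under 0.05 in edgeR's quasi-likelihood test, adjusted over all genes tested, and CPM values are counts scaled to library size by the TMM method. Without any single H929 library EIF2AK3 alone passed, and the adjusted p values of the 4 genes that fell were then 0.065 to 0.16, while the calls over all genes dropped from 1370 to between 191 and 369. The log2 fold changes with a library left out were -0.50 to -0.37 for EIF2AK2, -0.55 to -0.34 for EIF2S1, -0.71 to -0.49 for EIF2B3 and -0.45 to -0.34 for EIF2B5. Without the second KMS11 ethanol library EIF2S1 (adjusted p = 0.07) and EIF2B5 (adjusted p = 0.057) did not pass. Across all genes, 62.3% of the calls were higher in fluvastatin, compared with 46.4% after a correction for GC content and 29.4% with limma on TPM.

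**Figure D1:**
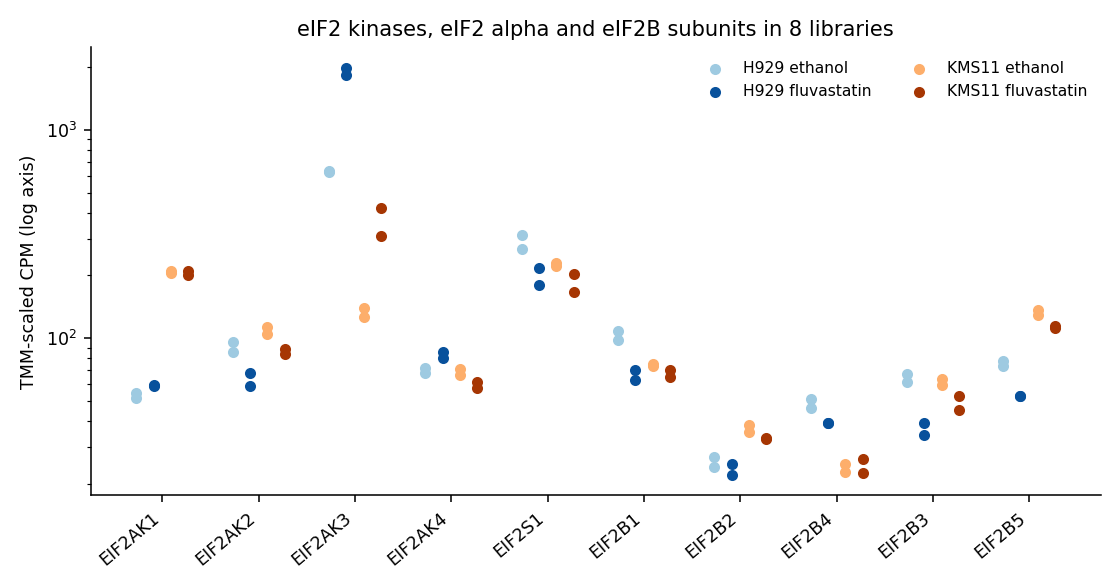
Expression of the 10 genes in every library, as TMM-scaled CPM on a log axis, with each point 1 library. The 2 H929 fluvastatin libraries stand at 1834 and 1990 CPM for EIF2AK3, above all other points.

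Within H929, EIF2AK3 was again the only member that rose and 5 members fell: EIF2B3, EIF2B1, EIF2S1, EIF2B5 and EIF2AK2. Of all genes tested, 22.7% rose and 19.3% fell in H929. The median log2 fold change of the members was -0.42, compared with 0.02 for all genes. Within KMS11, EIF2AK3 rose and no other member passed edgeR's test, while 2.58% of all genes rose and 0.533% fell. The other 9 members had adjusted p values of 0.12 to 0.94 there, although EIF2AK2, EIF2B3 and EIF2B5 had unadjusted p values under 0.05. Their log2 fold changes in KMS11 ran from -0.33 to 0.03. With a correction for GC content, EIF2AK2, EIF2B3 and EIF2B5 passed in KMS11 too, which makes 4 members, and without the second KMS11 fluvastatin library EIF2S1 (adjusted p = 0.04) and EIF2B3 (adjusted p = 0.027) did. DESeq2 called EIF2AK3 and no other member in KMS11. Of all calls in KMS11, 82.9% were higher in fluvastatin, or 53.7% after the GC correction.

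**Figure D2:**
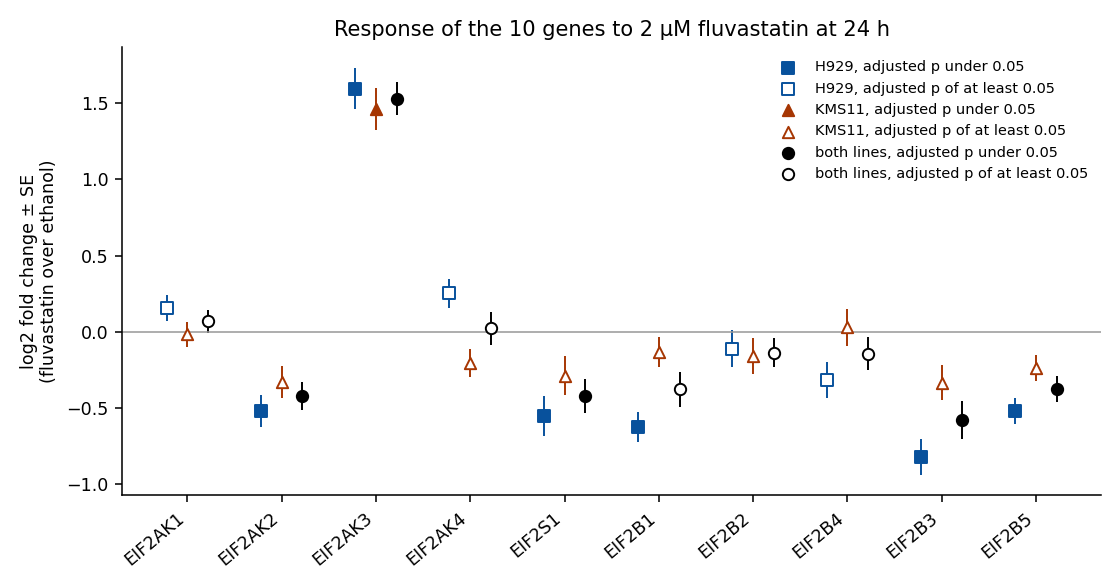
The log2 fold change of fluvastatin over ethanol for each gene with its SE, in H929, in KMS11 and across both lines. Filled symbols passed an adjusted p of 0.05, and the EIF2AK3 values of 1.60, 1.46 and 1.53 stand apart from the other genes, which lie between -0.82 and 0.25.

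EIF2AK3 encodes PERK, the kinase of the ER membrane that is activated by unfolded proteins. It spans chr2:88556741-88691518 on the minus strand (ENSG00000172071.11). Expression stood at 636 and 628 CPM in H929 in ethanol and at 1834 and 1990 CPM in fluvastatin, and at 126 and 139 CPM in KMS11 in ethanol and 310 and 422 CPM in fluvastatin. Treated and untreated libraries did not overlap in either line, and every KMS11 library, treated or not, was below every H929 library. Here and below, a lack of overlap between 2 and 2 libraries is a description and not a test. Its share over all genes is not given. The log2 fold change of EIF2AK3 was 1.60 ± 0.14 (SE) in H929 (edgeR, adjusted p = 2.6e-05) and 1.46 ± 0.14 in KMS11 (adjusted p = 0.00045). The difference of the responses, KMS11 minus H929, was -0.13 ± 0.19 (adjusted p = 0.65), so a difference between the lines was not shown. Among all genes tested the increase ranked 302 from the highest across both lines, 717 in H929 and 278 in KMS11. In ethanol, KMS11 expressed 0.21 of the H929 level (log2 fold change -2.25 ± 0.14, adjusted p = 4.2e-07).

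By TPM, which is scaled by length and so allows genes to be ranked within a library, EIF2AK3 moved from ranks 475 and 508 of 13129 to ranks 162 and 153 in H929. In KMS11 it moved from ranks 2849 and 2827 to ranks 1199 and 850. In 21 of the 22 alternative analyses across both lines, the increase passed the test, and leaving out a library gave log2 fold changes of 1.41 to 1.61. The exception was the fit without a cell line term.

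EIF2AK2 encodes PKR, the kinase that binds double-stranded RNA, and spans chr2:37099210-37157522 on the minus strand (ENSG00000055332.16). Its levels were 85.5 and 95.8 CPM in H929 in ethanol and 58.7 and 67.7 CPM in fluvastatin. In KMS11 they were 113 and 105 CPM in ethanol and 84.2 and 89.0 CPM in fluvastatin. The treated libraries were below the untreated ones in each line without overlap. EIF2AK2 fell by 0.52 ± 0.11 (SE) on the log2 scale in H929 (adjusted p = 0.0032) and by 0.42 ± 0.09 across both lines (adjusted p = 0.028), and its value in KMS11 was -0.33 ± 0.10 (adjusted p = 0.12).

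Other interferon-stimulated genes, the class to which EIF2AK2 is usually assigned, went the other way in H929. Of the 19 genes of that list that were tested, 15 rose and none fell within H929, with a median log2 fold change of 0.999, compared with 0.02 over all genes tested. The largest increases were those of RSAD2 (2.16), IFIT2 (1.97), SAMD9 (1.94), OAS3 (1.75) and IFIT1 (1.72), and IRF7, IRF9 and RSAD2 also rose across both lines. Of these largest increases, only that of SAMD9 was far from the floor, at 170 and 166 CPM against 639 and 657 CPM. RSAD2, IFIT2 and IFIT1 stood at 0.48 to 1.88 CPM in H929 in ethanol and 2.28 to 6.57 CPM in fluvastatin. OAS3 was at 0.17 and 0.20 CPM against 0.66 and 0.60 CPM. In KMS11 none of the 19 rose, and the responses of 9 genes of the list differed between the lines, all lower in KMS11. The fall of EIF2AK2 was not shown to differ between the lines (difference 0.19 ± 0.15, adjusted p = 0.37), but the difference passed after the GC correction, at 0.45 (adjusted p = 0.0031).

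EIF2AK4 and EIF2AK1 did not pass the test in any comparison of treatments. EIF2AK4 encodes GCN2, which senses uncharged tRNA, and spans chr15:39934115-40035591 on the plus strand (ENSG00000128829.11). It stood at 72.0 and 67.7 CPM in H929 in ethanol and 85.7 and 80.5 CPM in fluvastatin, and at 71.2 and 66.1 CPM against 61.5 and 57.4 CPM in KMS11. Treated libraries were thus above the untreated ones in H929 and below them in KMS11, without overlap in either line. The log2 fold changes were 0.25 ± 0.09 (adjusted p = 0.055) in H929 and -0.21 ± 0.09 (adjusted p = 0.23) in KMS11, and the difference of -0.46 ± 0.13 passed the test (adjusted p = 0.034).

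EIF2AK1 encodes HRI, the heme-regulated kinase that also relays mitochondrial stress, and spans chr7:6022247-6059175 on the minus strand (ENSG00000086232.12). It stood at 54.6 and 51.5 CPM in H929 in ethanol, 59.2 and 59.1 CPM in fluvastatin, and 200.3 to 210 CPM in the 4 KMS11 libraries. The KMS11 level in ethanol was 3.91-fold that of H929 (log2 fold change 1.97 ± 0.09, adjusted p = 4.4e-08), and the fluvastatin response was 0.07 ± 0.08 on the log2 scale across both lines (adjusted p = 0.57).

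The kinase makeup therefore differed between the lines and moved with treatment. EIF2AK3 made up 77.4% ± 0.0882 (SD, n = 2) of the summed TPM of the 4 kinase mRNAs in H929 in ethanol and 91.7% ± 0.439 in fluvastatin. In KMS11 its share was 24.4% ± 0.0259 in ethanol and 50.1% ± 5.49 in fluvastatin. EIF2AK1 held the largest share in KMS11 in ethanol, at 52.8% ± 1.72, and 36.3% ± 4.29 in fluvastatin, against 8.51% ± 1.15 and 3.50% ± 0.247 in H929. EIF2AK2 and EIF2AK4 never exceeded 13.7% and 10.4%. These shares are per length and within a library, and were not tested.

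**Figure D3:**
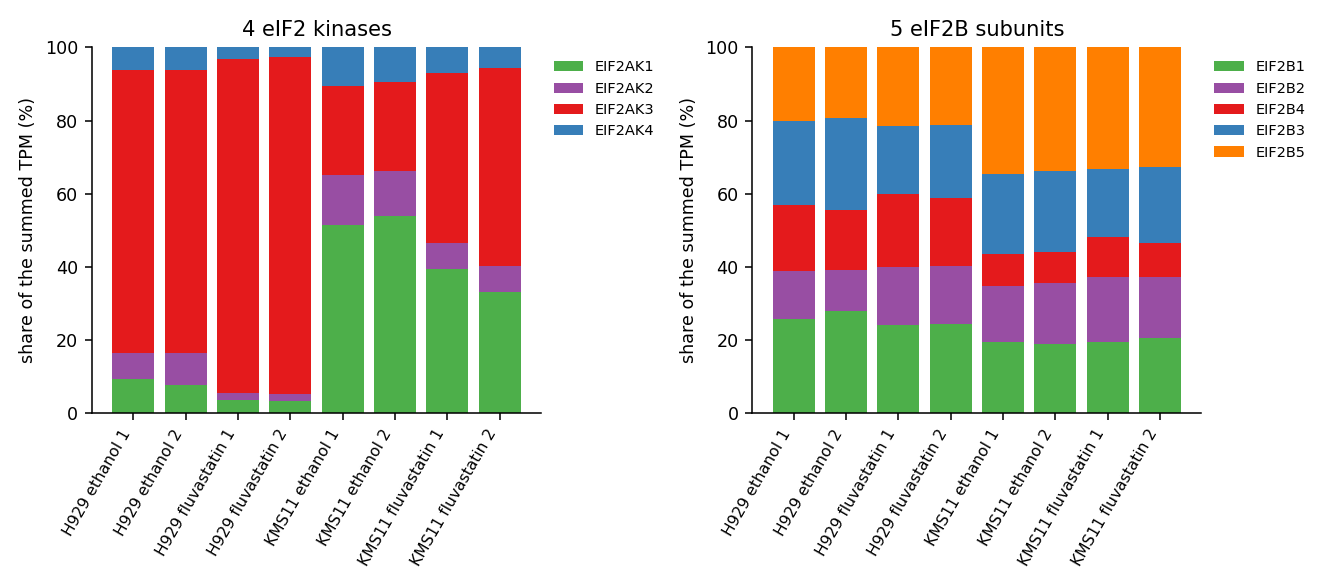
Share of each kinase in the summed TPM of the 4 kinases, left, and of each subunit in the summed TPM of the 5 eIF2B subunits, right, with each bar 1 library. EIF2AK3 grows from 24.4% to 50.1% in KMS11 and from 77.4% to 91.7% in H929, while the eIF2B subunits keep more even shares.

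EIF2S1 encodes eIF2 alpha, the substrate of the 4 kinases, and spans chr14:67360328-67386516 on the plus strand (ENSG00000134001.12). It was measured at 267 and 313 CPM in H929 in ethanol and 179 and 216 CPM in fluvastatin, and at 228 and 223 CPM against 166 and 204 CPM in KMS11. The treated libraries were lower in each line without overlap. EIF2S1 fell by 0.55 ± 0.13 (SE) on the log2 scale in H929 (adjusted p = 0.0075) and by 0.42 ± 0.11 across both lines (adjusted p = 0.046), and its value in KMS11 was -0.29 ± 0.13 (adjusted p = 0.23). In H929 it did not pass without the first fluvastatin library (adjusted p = 0.057) or the second ethanol library (adjusted p = 0.059). The call across both lines passed in 11 of 22 alternative analyses, with adjusted p values of 0.01 to 0.75.

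The other subunits of eIF2 did not pass the test. EIF2S2, the beta subunit, had a log2 fold change of 0.06 ± 0.09 across both lines (adjusted p = 0.71), and EIF2S3, the gamma subunit that binds GTP, -0.15 ± 0.08 (adjusted p = 0.21). EIF2S1 made up 42.8% ± 1.88 (SD, n = 2) of the summed TPM of the 3 subunits in H929 in ethanol and 32.4% ± 0.273 in fluvastatin, and 30.6% ± 0.353 against 26.2% ± 0.0359 in KMS11. The share of EIF2S2 was 25.3% in ethanol and 33.6% in fluvastatin in H929, and 25.6% against 28.5% in KMS11. The ratio of EIF2AK3 to EIF2S1 by TPM was 0.694 ± 0.0992 in H929 in ethanol and 3.21 ± 0.116 in fluvastatin, and 0.20 ± 0.0108 against 0.756 ± 0.112 in KMS11. In fluvastatin, H929 thus held more PERK mRNA than eIF2 alpha mRNA per length, which was not so in ethanol or in KMS11.

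eIF2B is built from a regulatory subcomplex of the alpha, beta and delta subunits, encoded by EIF2B1, EIF2B2 and EIF2B4, which senses phosphorylated eIF2, and a catalytic subcomplex of gamma and epsilon, encoded by EIF2B3 and EIF2B5. Both catalytic genes fell across both lines and within H929, as did EIF2B1 within H929. EIF2B3 (chr1:44850522-44986722, minus strand, ENSG00000070785.16) was measured at 61.7 and 67.5 CPM in H929 in ethanol and 34.04 and 38.9 CPM in fluvastatin, and at 59.7 and 63.6 CPM against 45.0 and 52.7 CPM in KMS11. The groups did not overlap in either line. It fell by 0.82 ± 0.12 (SE) on the log2 scale in H929 (adjusted p = 0.00045), the largest fall among the members, and had a value of -0.33 ± 0.12 in KMS11 (adjusted p = 0.14).

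EIF2B5 encodes the epsilon subunit, which carries the nucleotide exchange activity, and spans chr3:184135038-184146127 on the plus strand (ENSG00000145191.12). It stood at 77.4 and 73.6 CPM in H929 in ethanol against 52.6 CPM in both fluvastatin libraries, and at 130 and 136 CPM against 114 and 111 CPM in KMS11. All treated libraries were below the untreated ones of their line. EIF2B5 fell by 0.52 ± 0.09 in H929 (adjusted p = 0.001) and by 0.38 ± 0.09 across both lines (adjusted p = 0.031). The value in KMS11 was -0.24 ± 0.08 (adjusted p = 0.15).

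Of the regulatory genes, EIF2B1 (chr12:123620406-123633766, minus strand, ENSG00000111361.12) was at 98.1 and 108 CPM in H929 in ethanol and 63.1 and 70.5 CPM in fluvastatin. In KMS11 it was at 73.6 and 75.1 CPM in ethanol and 65.1 and 70.5 CPM in fluvastatin. The treated libraries of the 2 lines lay in the same range, and the ethanol libraries of H929 stood above all others. It fell by 0.62 ± 0.10 in H929 (adjusted p = 0.00082), and had values of -0.13 ± 0.10 in KMS11 (adjusted p = 0.45) and -0.38 ± 0.12 across both lines (adjusted p = 0.067). The difference of the responses was 0.49 ± 0.14 (adjusted p = 0.031).

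EIF2B2 and EIF2B4 did not pass the test in any comparison of treatments. EIF2B2 (chr14:75002921-75012366, plus strand, ENSG00000119718.10) was at 21.96 to 26.8 CPM in the H929 libraries, where the treatments overlapped, and at 35.2 and 38.4 CPM against 32.6 and 33.1 CPM in KMS11. EIF2B4 (chr2:27364352-27370338, minus strand, ENSG00000115211.15) was at 50.9 and 46.2 CPM against 39.0 and 39.2 CPM in H929, without overlap, and at 22.4 to 26.3 CPM in KMS11, where the treatments overlapped. The log2 fold changes across both lines were -0.14 ± 0.09 (adjusted p = 0.35) for EIF2B2 and -0.14 ± 0.11 (adjusted p = 0.41) for EIF2B4. The median over the 5 subunits was -0.52 in H929 and -0.16 in KMS11.

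The summed TPM of the 5 subunits was 90.6 ± 0.594 (SD, n = 2) in H929 in ethanol and 62.7 ± 3.89 in fluvastatin, and 136 ± 2.86 against 106 ± 10.9 in KMS11. Protein-coding genes held 34.5% of all TPM in H929 in ethanol and 32.5% in fluvastatin, and 45.8% against 40.5% in KMS11. TPM sums of different groups are thus not on the same footing, and the part of this in the differences was not tested. The highest subunit exceeded the lowest 2.23-fold in H929 in ethanol and 1.54-fold in fluvastatin, and 3.93-fold and 3.34-fold in KMS11. In H929 in ethanol EIF2B1 was highest (26.9% of the sum) and EIF2B2 lowest (12.2%), whereas in KMS11 EIF2B5 was highest (34.2%) and EIF2B4 lowest (8.71%). EIF2S1 stood at 7.20 ± 0.799 times the mean subunit by TPM in H929 in ethanol and 6.67 ± 0.154 times in fluvastatin, and at 4.70 ± 0.334 and 4.01 ± 0.188 times in KMS11. In H929 this ratio differed between treatments by less than its SD in ethanol. In KMS11 it was 4.93 and 4.46 in ethanol and 3.88 and 4.15 in fluvastatin, without overlap, and was not tested.

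Whether the lines responded differently was tested by the difference of the responses, KMS11 minus H929. Of the 10 genes, 2 passed, EIF2B1 (0.49) and EIF2AK4 (-0.46), where 23.2% of all genes tested did. EIF2B3 had a difference of 0.49 ± 0.16 (adjusted p = 0.056), and the other 7 had adjusted p values of 0.11 to 0.87. Leaving out a single library left 0 members without either KMS11 ethanol library, the second KMS11 fluvastatin library, the first H929 fluvastatin library or the second H929 ethanol library. It left EIF2B1 alone without either of the other H929 libraries, and EIF2B1, EIF2AK4 and EIF2B3 without the first KMS11 fluvastatin library. With limma on TPM 0 members passed, and with the GC correction EIF2AK2, EIF2S1, EIF2B1 and EIF2B3 did.

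In ethanol alone, 8 of the 10 genes differed between the lines, 4 higher in KMS11 and 4 lower, where 35.6% of all genes were higher and 36.4% lower. EIF2AK1 (log2 fold change 1.97), EIF2B5 (0.82), EIF2B2 (0.54) and EIF2AK2 (0.26) were higher in KMS11, and EIF2AK3 (-2.25), EIF2B4 (-1.03), EIF2B1 (-0.47) and EIF2S1 (-0.36) were lower. EIF2B3 (-0.07) and EIF2AK4 (-0.02) did not pass. The calls of EIF2AK2 and EIF2S1 were lost without either KMS11 ethanol library, that of EIF2AK2 without the first H929 ethanol library and that of EIF2S1 without the second, with adjusted p values of 0.082 to 0.25. The directions of EIF2AK2, EIF2B1, EIF2B3 and EIF2AK4 depended on the scaling. EIF2AK2 was at -0.07 after the GC correction, and EIF2B1, EIF2B3 and EIF2AK4 were at 0.10, 0.44 and 0.48 with limma on TPM. On that scale the median over all genes was 0.31 and 72.8% of the calls were higher in KMS11, compared with -0.02 and 49.5% in the main analysis, and protein-coding genes held 34.5% of the TPM in H929 in ethanol and 45.8% in KMS11.

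The order of the 10 mRNAs per length in H929 in ethanol was EIF2S1 (130 TPM), EIF2AK3 (89.9), EIF2B1 (24.4), EIF2B3 (21.7), EIF2B5 (17.9), EIF2B4 (15.5), EIF2B2 (11.1), EIF2AK1 (9.91), EIF2AK2 (9.25) and EIF2AK4 (7.16). In KMS11 in ethanol it was EIF2S1 (128 TPM), EIF2AK1 (55.3), EIF2B5 (46.6), EIF2B3 (29.8), EIF2B1 (26.2), EIF2AK3 (25.5), EIF2B2 (21.6), EIF2AK2 (13.6), EIF2B4 (11.8) and EIF2AK4 (10.4). The ranges of the 2 libraries overlapped between EIF2B2 and EIF2AK1 and between EIF2AK1 and EIF2AK2 in H929 and between EIF2B1 and EIF2AK3 in KMS11. In fluvastatin EIF2AK3 led in H929 at 268 TPM, ahead of EIF2S1 at 83.7, whereas EIF2S1 still led in KMS11 at 85.2, ahead of EIF2AK3 at 65.2 with ranges that overlapped.

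Of the 14 partners of eIF2 in initiation, 1 rose and 4 fell across both lines, where 6.5% of all genes rose and 3.93% fell. In H929 1 rose and 6 fell, where 22.7% and 19.3% of all genes did, and in KMS11 none passed. The medians of the 14 were -0.21, -0.21 and -0.22. EIF1, which guards start codon choice, rose by 0.61 ± 0.11 across both lines (adjusted p = 0.019), from 150 and 147 CPM to 275 and 273 CPM in H929. The genes that fell were ABCE1 (-0.50), a ribosome recycling factor, BZW2 (-0.44), CDC123 (-0.40), which assembles eIF2, and EIF5B (-0.39), which joins the ribosomal subunits. Of the 14 genes, 10 were higher in KMS11 than in H929 in ethanol and none was lower, where 35.6% and 36.4% of all genes were.

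Phosphorylated eIF2 alpha is reset by protein phosphatase 1 with a regulatory subunit, either the stress-induced PPP1R15A (GADD34) or the constitutive PPP1R15B (CReP). Of the 6 genes of this list, PPP1R15A rose in all 3 comparisons of treatments and the others did not pass in any. Of all genes tested, 6.5% rose across both lines, 22.7% in H929 and 2.58% in KMS11. PPP1R15A stood at 62.2 and 42.1 CPM against 112 and 94.9 CPM in H929 and at 21.1 and 24.3 CPM against 55.4 and 49.9 CPM in KMS11, and its log2 fold change across both lines was 1.10 ± 0.14 (adjusted p = 0.0044). PPP1R15B was at -0.14 ± 0.07 (adjusted p = 0.20). Among the 8 mRNAs known for upstream open reading frames that escape the block, 3 rose across both lines, ATF4 (0.51 ± 0.12, adjusted p = 0.033), DDIT3 (1.51 ± 0.20, adjusted p = 0.0053) and PPP1R15A, and none fell. In H929 5 of the 8 rose, with ATF5 (0.42) and IBTK (0.45) in addition, where 22.7% of all genes did. In KMS11 2 rose, DDIT3 (1.05) and PPP1R15A (1.21), where 2.58% of all genes did. The medians of the 8 were 0.26, 0.43 and 0.28 in the 3 comparisons.

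Of 10 regulators of the kinases, 1 passed across both lines: MAP3K20, the ribotoxic stress kinase ZAK, fell by 0.37 ± 0.09 (adjusted p = 0.039). In H929 3 rose and 3 fell, shares near the 22.7% and 19.3% of all genes, and in KMS11 none passed. IMPACT, an inhibitor of GCN2 (0.72), OMA1, a mitochondrial protease upstream of HRI (0.47), and DNAJC3, an inhibitor of PKR and PERK (0.37), rose in H929. GCN1, the activator of GCN2 (-0.49), MAP3K20 (-0.49) and HSPA5, the ER chaperone BiP that holds PERK inactive (-0.31), fell there. HSPA5 stood at 434 and 419 CPM against 348 and 339 CPM in H929 and at 491 and 515 CPM against 418 and 455 CPM in KMS11, where its value was -0.21 ± 0.09 (adjusted p = 0.20). The list's medians were 0.05 across both lines, 0.04 in H929 and -0.11 in KMS11.

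RSEM gives each gene a length that is the mean of its isoforms, weighted by their estimated abundance. A gene met the rule where this length was greater in both fluvastatin libraries than in both ethanol libraries of each line. Of the 10 genes, 4 met it, EIF2AK2, EIF2S1, EIF2B1 and EIF2B3, where 3.52% of all genes tested did. No member was shorter by the same rule in both lines, but the share of all genes that were shorter was not counted. The 4 genes all had lower levels in fluvastatin in each line. So did EIF2B5, which did not meet the rule, with 2165 and 2126 bases against 2061 and 1974 bases in H929. Its treatments overlapped in KMS11, at 2068 and 2113 bases against 2203 and 2093 bases. EIF2B2 had lower group means in each line and did not meet the rule either. EIF2AK2 had weighted lengths of 4877 and 4646 bases against 5206 and 5344 bases in H929, and 5521 and 5612 bases against 6139 and 5699 bases in KMS11. EIF2S1 had 1218 and 1214 bases against 1233 and 1329 bases in H929, and 1347 and 1386 bases against 1436 and 1558 bases in KMS11. For EIF2B1 and EIF2B3 the group means differed by 25.0 to 77.4 bases, and for EIF2B3 the nearest ethanol and fluvastatin libraries of H929 were both at 1572 bases when rounded. EIF2AK3 kept 3420 to 3782 bases in all 8 libraries, with overlap between treatments in each line.

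**Figure D4:**
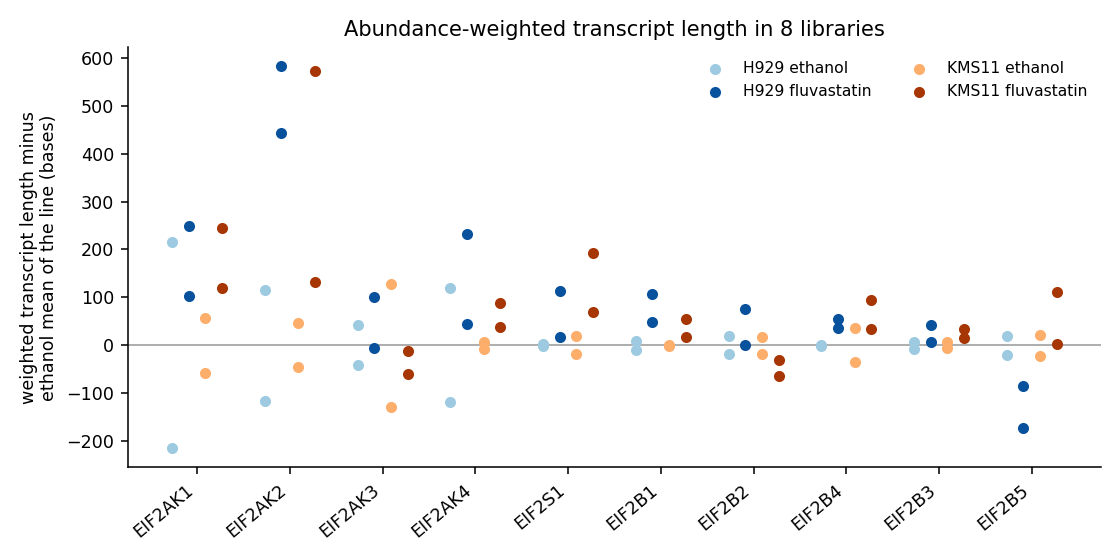
Abundance-weighted transcript length of each gene minus the ethanol mean of its line, in bases, with each point 1 library. EIF2AK2 lies above its ethanol libraries in both lines, and the EIF2AK3 points overlap between treatments.

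The genes most like EIF2S1 were sought by Pearson's correlation of log2 CPM over the 8 libraries, after each line's mean was subtracted, among the 5561 genes whose log2 CPM averaged 5 or more. The 3 closest were IPO7, a nuclear import receptor (r = 0.998), TFAM, the mitochondrial transcription factor (r = 0.996), and HNRNPR, an RNA-binding protein (r = 0.996). Among the members, EIF2AK2 (0.969), EIF2B3 (0.964) and EIF2B1 (0.939) followed EIF2S1 most closely, then EIF2B5 (0.844), EIF2B2 (0.596) and EIF2B4 (0.426), while EIF2AK3 (-0.80), EIF2AK1 (-0.661) and EIF2AK4 (-0.455) ran against it. The 8 points share libraries and depth, and the effect of treatment was not subtracted. These values therefore restate in part the fold changes above and are descriptions.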

How the data were processed

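RNA from 8 cultures was depleted of ribosomal RNA and made into stranded libraries, which the authors sequenced as paired ends. They aligned the reads to GRCh38 with STAR 2.5.2b against GENCODE annotation and estimated gene values with RSEM 1.3.0. The deposited values are RSEM's expected counts without normalization, TPM, which is scaled by effective length over all annotated genes, and a weighted length per gene as a score in bases. Multi-mapped reads are shared between genes by estimation, so counts need not be whole.

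Gene names and spans were taken from GENCODE release 44, later than the authors' release, which held 57392 of the 58219 identifiers. The main test, on expected counts rounded to whole numbers, was that of edgeR 4.0.16 in R 4.3.3 (filterByExpr, min.count 10 and min.total.count 15, TMM scaling, quasi-likelihood F test, Benjamini-Hochberg adjustment over 13129 protein-coding genes, threshold 0.05). SEs were derived from the F statistic, as |log2 fold change| over its square root. The first fit had terms for line and treatment, another had 4 group means, and both used all 8 libraries. Samples were grouped by their titles, and the labels name no batch. Alternatives used DESeq2 1.42.0, limma 3.58.1 on log2(TPM + 1) and log2(TPM + 0.1), other filters and scalings, offsets for GC content and length, a replicate block, an adjusted p of 0.01 and leaving out each library. The edgeR fits were also run on simulated counts with independent libraries, and no result here rests on that run. TPM and lengths were described without a test. Replicates differed beyond counting noise in every group (chi-square per degree of freedom 9.42 to 43.4).

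All 10 members are named, with up to 5 genes past the threshold of each list by size of change, some fixed genes (ATF4, DDIT3, PPP1R15A, PPP1R15B, EIF2S2, EIF2S3) and the 3 genes most like EIF2S1. HSPA5 was added after its values were seen. Members and lists were chosen with earlier results of these data known. Promoters came from RefSeq on GRCh38.p14. A result that needs a withheld item is not reported here.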

Additional observations from a re-analysis of the deposited data

Results flagged for a closer look

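The responses of 2 of the 10 genes differed between the lines by the test of the difference itself, where 23.2% of all genes tested did. The share among the members was thus no greater than among all genes. For EIF2B1 the difference, KMS11 minus H929, was 0.49 ± 0.14 (SE) on the log2 scale (edgeR, adjusted p = 0.031), from a response of -0.62 in H929 and -0.13 in KMS11. For EIF2AK4 it was -0.46 ± 0.13 (adjusted p = 0.034), from responses of 0.25 in H929 and -0.21 in KMS11, neither of which passed the test within its line. EIF2B1 passed in 11 of 21 alternative analyses, with adjusted p values up to 0.20, and EIF2AK4 in 8 of 21, with adjusted p values up to 0.17.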

How the results depend on the processing

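The increase of EIF2AK3 kept its direction in all alternatives and passed within each line in all 21. Across both lines 5 members passed. The count was 1 with the replicate block, with the block plus GC content and length offset, and at an adjusted p under 0.01, and 0 without a cell line term, where the difference between lines enters the spread. It was 1 to 6 when a library was left out, 1 without each H929 library and 3 without the second KMS11 ethanol library. Within H929 the count stayed within 1.5 times 6 throughout. Within KMS11, where 1 passed, it was 3 with the replicate block, 4 with the GC offset, alone or with length, 6 with the block plus both, and 1 to 3 when a library was left out, 3 without the second fluvastatin library. For the difference of the responses, where 2 passed, it was 1 with median-of-ratios scaling, DESeq2 and all annotated genes, 4 with the GC offset, 5 with GC and length, 6 with the block plus both, 0 with limma on TPM and at 0.01, and 0 to 3 when a library was left out. The cause was not tested. Pairing by replicate number was not shown: the labels do not say what a number marks, and same-numbered deviations from the group means correlated at 0.774 in H929 and -0.0782 in KMS11. The share of EIF2AK3 among the kinases was 77.8% in H929 and 25.3% in KMS11 in ethanol with 1 effective length per gene. Some values changed sign, of which EIF2AK2 and EIF2B1 in KMS11 against H929 in ethanol had passed in the main analysis and the others had not. Across both lines, EIF2AK1 was -0.10 with limma at either pseudocount, and EIF2AK4 was -0.012 with all annotated genes, -0.014 with the GC offset, -0.097 with GC and length, -0.099 with the block plus both, -0.075 and -0.081 with limma, and -0.044 to 0.055 when a library was left out. Within KMS11, EIF2AK1 was 0.0047 with library size scaling, 0.0048 with GC and length, with or without the block, and -0.096 to 0.0093 when a library was left out. EIF2B4 there was -0.0082 with median-of-ratios scaling, -0.0084 with DESeq2, -0.065 with the GC offset, -0.033 with GC and length, -0.034 with the block plus both, -0.17 and -0.18 with limma, and -0.097 to 0.098 when a library was left out. For the difference of the responses, EIF2AK3 was 0.067 with the GC offset, 0.096 with GC and length, 0.091 with the block plus both and -0.38 to 0.091 when a library was left out, EIF2B2 was -0.14 to 0.043 when a library was left out, and EIF2B5 was -0.016 and -0.0022 with limma. For KMS11 against H929 in ethanol, EIF2AK2 was -0.071 with the GC offset and -0.047 with length added, with or without the block. With limma at pseudocounts of 1 and 0.1, EIF2AK4 was 0.48 and 0.53, EIF2B1 0.098 and 0.10, and EIF2B3 0.44 and 0.45, of which those of EIF2AK4 and EIF2B3 passed, and when a library was left out EIF2AK4 was -0.068 to 0.040 and EIF2B3 -0.13 to 0.003.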

Other observations

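The genomic neighbours of EIF2AK3 were looked up after its values were seen, as the 7 tested protein-coding genes within 1 Mb on chromosome 2, itself included. KRCC1 (chr2:88027205-88064252) rose in H929 by 1.45 ± 0.12 (SE) on the log2 scale (edgeR, adjusted p = 2.7e-05), from 21.6 and 17.9 CPM to 53.3 and 54.4 CPM, and was at -0.12 ± 0.12 in KMS11 (adjusted p = 0.58). RPIA (chr2:88691673-88750929), which begins next to the upstream end of the EIF2AK3 span on the other strand, fell across both lines by 0.39 ± 0.09 (adjusted p = 0.034). RPIA stood at 19.4 and 19.7 CPM against 13.6 and 14.2 CPM in H929, where it fell by 0.50 ± 0.11 (adjusted p = 0.0064). Its value in KMS11 was -0.30 ± 0.11 (adjusted p = 0.16). PLGLB2 passed in H929 at levels under 1 CPM, and the other 3 neighbours did not pass there. Of all genes tested, 22.7% rose and 19.3% fell in H929. The immunoglobulin kappa constant gene IGKC lies 166 kb from EIF2AK3 and was at 6970 to 9111 TPM in H929 and 15745 to 18640 TPM in KMS11.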
